A study of Homo sapiens with 8 samples.

Results

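The cytosolic ribosomal protein genes encode the proteins of the large (RPL) and small (RPS) subunits of the cytoplasmic ribosome. The 56 genes described here, 35 of the large and 21 of the small subunit, were chosen by symbol, and a peak was given to a gene when the deposited lists name that gene. They are set beside the 10577 Ensembl genes that have an m6A peak in at least 1 list. Of the 56 genes, 8 carried a peak in both DF2 siRNA and control cells, 0 in DF2 siRNA cells only, 7 in control cells only, and 41 in neither. A further 24 cytosolic ribosomal protein genes are not among the 56 and are counted apart below. The family means the 56 genes throughout.

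m6A is a methylated adenosine of mRNA, found mostly near stop codons and in 3′ UTRs. YTHDF2 (DF2) is a cytoplasmic protein that binds m6A and directs the bound mRNA to decay. Ribosomal protein mRNAs are short, abundant and long-lived. Many begin with a terminal oligopyrimidine (TOP) tract, a C followed by a run of C or T, through which mTOR signalling controls their translation.

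The cells were U2OS, a human osteosarcoma line. The groups were m6A immunoprecipitates of cells given DF2 siRNA, inputs of cells given DF2 siRNA, and immunoprecipitates and inputs of control cells, with 2 libraries in each of the 4 groups. All 8 libraries came from fragmented cytoplasmic RNA. The labels number the DF2 siRNA libraries without saying whether different siRNAs were used, and nothing says that libraries of a group came from separate cultures. Each condition had 1 deposited peak list tied to both of its immunoprecipitates. No difference between the conditions therefore had a replicate check, and none was tested. The DF2 siRNA list held 13219 peaks and the control list 15730. Library depth is unknown.

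YTHDF2 had 1 peak in each list. Its fold enrichment was 52.3 with a score of 185 in DF2 siRNA cells, and 124 with 4226 in control cells. Neither value is an mRNA level, so the knockdown could not be checked from them. Over all peaks with the same interval in both lists, the median ratio of DF2 siRNA score to control score was 0.425. A lower score in DF2 siRNA is thus usual across the lists. The YTHDF2 scores lie further apart than this median ratio, and its 2 peaks do not share an interval (1400 nt in DF2 siRNA cells, 2000 nt in control cells). Among 6 mesenchymal and osteosarcoma markers, COL1A1 and RUNX2 had a peak in both lists, and VIM, COL1A2, SPARC and TWIST1 in neither. PTPRC and CD3E (leukocytes), EPCAM (epithelium) and ALB (liver) had no peak.

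Most ribosomal protein genes had no m6A peak in either condition. A DF2 siRNA peak was found in 8 of the 56, against 36.1% of 20050 RefSeq protein-coding genes. A control peak was found in 15 of the 56, against 39.7%. At least 1 list held a peak for 26.8% of the 56 genes and for 42.2% of protein-coding genes. The protein-coding genes include some that these cells may not express, and transcript levels were not analysed here. Of the 35 large subunit genes, 7 had a peak in both lists, 5 in control only and 23 in neither. Of the 21 small subunit genes, 1 had a peak in both lists, 2 in control only and 18 in neither.

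The large subunit genes without a peak were RPL5, RPL7A, RPL8, RPL10A, RPL11, RPL12, RPL15, RPL18, RPL19, RPL21, RPL23, RPL24, RPL26, RPL27, RPL29, RPL31, RPL32, RPL34, RPL35, RPL38, RPLP0, RPLP1 and RPLP2. RPL5 and RPL11 are known for binding MDM2 when ribosome assembly is disturbed, and RPLP0, RPLP1 and RPLP2 form the stalk that recruits translation factors. The small subunit genes without a peak were RPS2, RPS3, RPS6, RPS7, RPS9, RPS10, RPS12, RPS13, RPS16, RPS18, RPS19, RPS20, RPS23, RPS25, RPS27, RPS27A, RPS28 and RPSA. RPS6 is the small subunit protein phosphorylated downstream of mTOR.

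Every gene of the family with a DF2 siRNA peak also had a control peak. These 8 genes were RPL3, RPL7, RPL13, RPL13A, RPL14, RPL28, RPL37 and RPS15, and among all genes with a DF2 siRNA peak the share was 92.9%, with 7.08% found there only. The 7 genes with a control peak only were RPL4, RPL6, RPL22, RPL30, RPL37A, RPS14 and RPS24. Thus 53.3% of the 15 genes with a control peak had a DF2 siRNA counterpart (95% exact binomial interval 26.6 to 78.7%). Among all genes with a control peak the share was 79.7%, and 20.3% had none. The interval covers counting error among genes only and is no test of the conditions. By highest control fold enrichment, 9 of the 15 fell in the lowest of 4 bins of all such genes. In that bin 41.6% of all genes had a counterpart. Over genes with a peak in at least 1 list, 5.73% were in DF2 siRNA only and 19.1% in control only. The −log10 column is headed p-value in the control list and FDR in the DF2 siRNA list, with a lowest value of 1.30 in each. If the headers hold, the lists were cut by unlike measures, and the part of this in the counts was not tested. A gene missing from a list need not carry less m6A. Bulk RNA also cannot tell the number of methylated copies per cell from the number of cells carrying them.

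**Figure D1:**
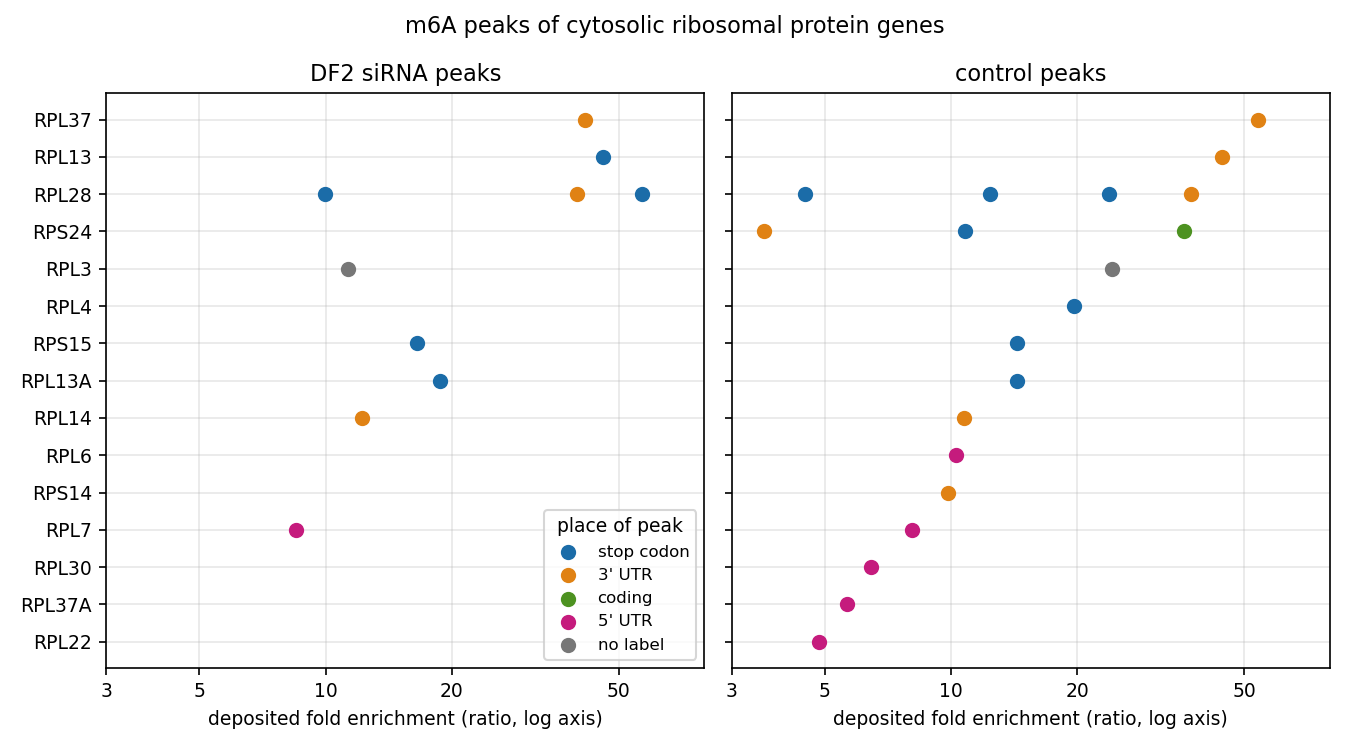
Deposited fold enrichment (ratio, log axis) of each m6A peak in the 15 ribosomal protein genes with a peak, DF2 siRNA list on the left and control list on the right, 1 point a peak, coloured by place in the transcript. The highest points belong to RPL28, RPL13 and RPL37 in both lists, and the rows of RPL4, RPL6, RPL22, RPL30, RPL37A, RPS14 and RPS24 are empty on the left.

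The sequence at the start of these genes is shown because several peaks lay at or before it. The lines give 15 bases before and 15 bases from the start in the RefSeq promoter table (GRCh38.p14), for genes with a peak upstream of the gene (RPL3, RPL22, RPL37A), at its start (RPS15, RPL6) or downstream (RPL28, RPS14, RPS24). Capitals mark the run of C or T that begins at the start, except in RPS15, where they mark GGAC, a common core of m6A sites.
RPL3: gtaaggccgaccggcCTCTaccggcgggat
RPL22: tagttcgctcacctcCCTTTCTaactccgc
RPL37A: gcaccgcgtctcttcCTTTCTgggctcgga
RPS15: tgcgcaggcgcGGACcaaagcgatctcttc
RPL6: tatttgtatcctcagTgaatcagaaccaga
RPL28: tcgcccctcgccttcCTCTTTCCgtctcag
RPS14: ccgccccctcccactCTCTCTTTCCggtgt
RPS24: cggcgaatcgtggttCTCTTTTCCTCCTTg
The windows of RPL3, RPL22, RPL37A and RPS15 are chr22:39319609-39319638 (minus strand), chr1:6199581-6199610 (minus), chr2:216498829-216498858 (plus) and chr19:1438381-1438410 (plus). Those of RPL6, RPL28, RPS14 and RPS24 are chr12:112411428-112411457 (minus), chr19:55385917-55385946 (plus), chr5:150449725-150449754 (minus) and chr10:78033848-78033877 (plus).

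A C at the start that opens a run of at least 5 C or T, read on the transcript strand, was found in 34 of the 48 genes of the family with a sequence (70.8%). It was found in 4.04% of 27305 promoters of the table and in 5 of 69 mitochondrial ribosomal protein genes (7.25%). Within the family, 7 of the 12 genes with a peak and 27 of the 36 without a peak held it. The first start that the table lists for a gene was used. For RPL6, RPL27 and RPL32 it lies inside the RefSeq gene, in RPL6 7393 nt from the gene start, whose sequence was not read. At the starts used, RPL3 has a run of 4, RPL13 a run of 2, RPS15 a single C, RPL6 a single T and RPL4 no run. None of these was counted. In RPL4 and RPS15 a run of at least 5 C or T lies further on, within 15 bases of the start used. The count therefore depends on the start listed. The starts of RPL4, RPL13, RPL13A (run of 7) and RPL14 (run of 6), which also have peaks downstream, are not printed above. GGAC occurs in 66.1% of all 300-base promoter windows on the transcript strand and in 87.4% on either strand. On either strand it was in 42 of the 48 windows of the family (87.5%).

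The highest fold enrichments of the family lay in the 3′ UTRs and around the stop codons of RPL37, RPL13 and RPL28, all of the large subunit. RPL37, a zinc-binding protein, had 1 peak over the same 400 nt of 3′ UTR in both lists (hg38 chromosome 5, 40827615 to 40828014, minus strand). Its deposited fold enrichment was 41.6 with a score of 322 in DF2 siRNA cells, and 54.1 with 1818 in control cells. In the control list no other peak of the family had a higher fold enrichment, and it stood at percentile 81.6 of all control peaks.

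RPL13 carried the highest score of the family in both lists. Its peak on chromosome 16 (plus strand) covered 600 nt at the stop codon in DF2 siRNA cells, from 89562857 to 89563456, and 400 nt of 3′ UTR in control cells, from 89563057 to the same end. The fold enrichment was 45.9 with a score of 3425 in DF2 siRNA cells, and 44.2 with 5706 in control cells. The scores stood at percentile 99.8 of the DF2 siRNA list and 99.6 of the control list.

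RPL28 had more peaks than any other of the 56 genes, 3 in DF2 siRNA cells and 4 in control cells (chromosome 19, plus strand). They lay from 1344 to 17318 nt after the RefSeq start, in a gene that ends at 55403342. The peak nearest the start, at a stop codon from 55387276 to 55387875, had a fold enrichment of 56.7 with a score of 128 in DF2 siRNA cells, against 23.8 and 169 in control cells. The next, in a 3′ UTR from 55388476 to 55389075, had 39.8 and 149 in DF2 siRNA cells, against 37.4 and 213 in control cells. Both kept the same interval in the 2 lists.

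The other RPL28 peaks were weaker. The one ending at 55392075 had a fold enrichment of 9.98 over 400 nt in DF2 siRNA cells and 12.4 over 600 nt in control cells. The most distal, of 133 nt from 55403118 to 55403250, was in the control list only, with a fold enrichment of 4.48 with a score of 4. All its bases also fall within UBE2S, a ubiquitin-conjugating enzyme gene of the opposite strand. The sources used here do not state whether strand was used in counting.

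RPL13A, a large subunit protein also known for translational control in myeloid cells, had 1 peak at its stop codon on chromosome 19 (plus strand), beginning at 49491740. The fold enrichment was 18.8 with a score of 1656 over 400 nt in DF2 siRNA cells, and 14.3 with 2641 over 569 nt in control cells. The control peak reached the last base of the RefSeq gene. RPL14, also of the large subunit, had a 3′ UTR peak on chromosome 3 that began at 40467162. It had 12.2 with a score of 13 over 200 nt in DF2 siRNA cells, and 10.8 with 35 over 400 nt in control cells.

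The 7 genes found in control only ranged from high scores to the lowest of the list. RPL4, whose protein lines the exit tunnel of the ribosome, had a 400 nt peak at its stop codon (chromosome 15, 66499052 to 66499451, minus strand). Its fold enrichment was 19.6 and its score 2823, at percentile 97.7 of control scores.

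RPS24, a small subunit gene with alternatively spliced 3′ exons, had 3 control peaks on chromosome 10 (plus strand). The one from 78054533 to 78054932, labelled coding, had a fold enrichment of 35.9, a score of 53 and a −log10 p of 17.3, the highest of the family in that list. The one from 78035688 to 78035887, at a stop codon, had a fold enrichment of 10.8 with a score of 699. The 3′ UTR peak from 78056533 to 78056732 had 3.58 and a score of 3, which equal the minimum of the control list. No DF2 siRNA peak overlapped any of them.

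RPS14, a small subunit gene within the 5q deletion of myelodysplasia, had a 3′ UTR peak of 200 nt (chromosome 5, 150443934 to 150444133, minus strand). Its fold enrichment was 9.83 and its score 45. RPL6 had a fold enrichment of 10.3 with a score of 236. Their −log10 p values were 1.82 for RPS14 and 1.41 for RPL6, where the lowest of the list is 1.30. RPL30, RPL37A and RPL22 had fold enrichments of 6.44, 5.64 and 4.83 and scores of 7, 6 and 5, where the median score of all control peaks was 143.

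Genes whose best control peak was strong more often had a DF2 siRNA peak anywhere in the gene. With all genes that have a control peak ranked by their highest fold enrichment and cut into 4 bins of about equal size, 41.6%, 81.6%, 96.3% and 99.4% from the lowest bin to the highest were also found in DF2 siRNA cells. The 15 ribosomal protein genes fell 9, 2, 4 and 0 into these bins, with 4, 1, 3 and 0 of them found in DF2 siRNA cells. The control-only genes outside the lowest bin were RPL4 in bin 2 and RPS24 in bin 3. Ranked by highest score, RPL4 and RPS24 stood in the top bin, where 98.3% of all genes had a DF2 siRNA counterpart. The part of peak strength in the family's count was not tested.

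RPL3, RPL22, RPL30 and RPL37A had peaks wholly upstream of the RefSeq gene. In RPL3, whose protein reaches towards the peptidyl transferase centre, the peak from 39319990 to 39320389 on chromosome 22 (minus strand) was the same interval in both lists. Its near end lay 367 nt before the RefSeq start, and the authors gave it no feature label. The fold enrichment was 11.3 with a score of 17 in DF2 siRNA cells, and 24.1 with 52 in control cells.

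The other upstream peaks were found in control cells only. Their near ends lay 256 nt before the start in RPL37A, 325 nt in RPL30 and 1090 nt in RPL22, all large subunit genes, and the authors labelled them 5′ UTR. Wholly upstream peaks were thus 1 of 10 in DF2 siRNA cells and 4 of 20 in control cells. Among peaks of genes with a RefSeq start sequence, which leaves out RPL7, RPL30 and RPL37, they were 1 of 8 in DF2 siRNA cells, against 1.13% of all such peaks, and 3 of 17 in control cells, against 1.51%. All 400 nt of the RPL37A peak fall within RPL37A-DT, a lncRNA gene of the opposite strand. The RPL22 peak was in 4 pieces over 8505 nt, and 114 of its 400 nt fall within RNF207, also of the opposite strand. Use of strand in counting is not stated, so signal of the 2 strands cannot be told apart here over the shared bases.

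In RPS15, RPL7 and RPL6 the peaks lay at or near the start. RPS15, a protein near the decoding site, had the same 200 nt peak in both lists (chromosome 19, 1438358 to 1438557, plus strand), from 38 nt before the RefSeq start to 161 nt after it. It was labelled coding, 5′ UTR and stop codon. Its fold enrichment was 16.5 with a score of 172 in DF2 siRNA cells, and 14.4 with 307 in control cells. All 30 bases printed for RPS15 lie within this peak. The GGAC begins 4 bases before the RefSeq start and lies wholly upstream of it. Whether it is methylated was not tested.

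RPL7, a large subunit gene on chromosome 8, had a 5′ UTR peak in both lists. Its fold enrichment was 8.51 with a score of 15 over 400 nt in DF2 siRNA cells, and 8.07 with 19 over 200 nt in control cells. The DF2 siRNA peak consisted of 375 nt inside the gene and 25 nt that lie 1299 nt before its start, within the span of RDH10. RPL6, a large subunit gene on chromosome 12 (minus strand), had its control peak in 4 pieces, 600 nt in all over a span of 9458 nt. The piece from 112411301 to 112411442 ends at the start given in the promoter table, and the piece at the RefSeq gene start, 112418835, reaches 3 nt upstream of it.

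**Figure D2:**
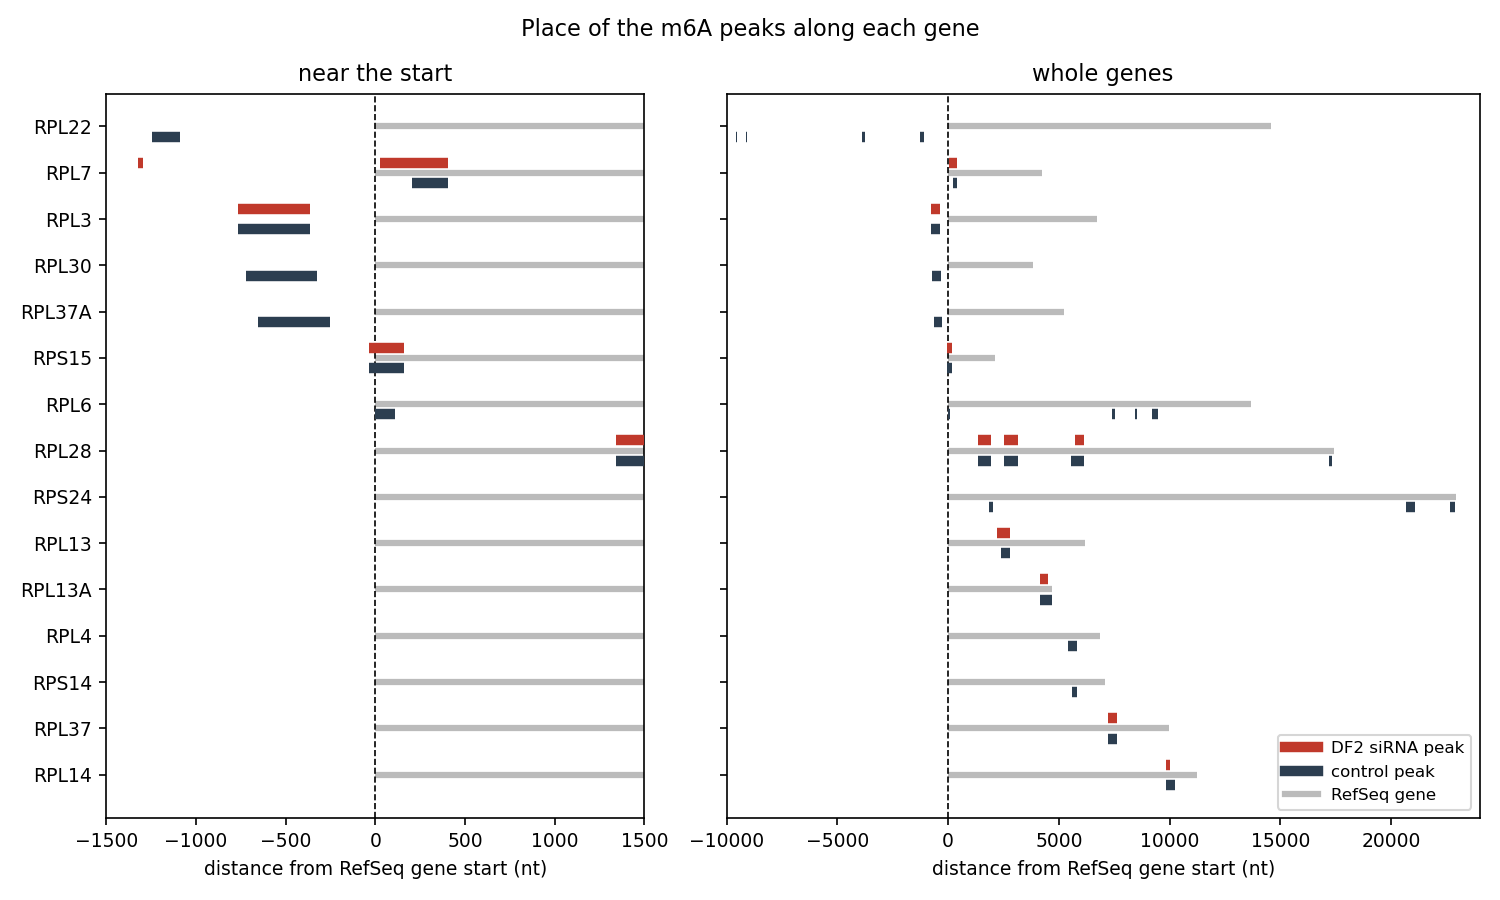
Exonic pieces of each peak by distance from the RefSeq gene start (nt, in the direction of transcription), DF2 siRNA above the grey gene line and control below it, near the start (left) and over whole genes (right). RPL37A, RPL30, RPL3 and RPL22 have peaks wholly left of the dashed start, with near ends 256, 325, 367 and 1090 nt upstream, and RPS15 crosses it.

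Peaks of the family were narrower than those of the lists. Their median was 400 nt of exonic sequence in both lists, against 600 nt over all peaks of each, with ranges of 200 to 600 nt in DF2 siRNA cells and 133 to 600 nt in control cells. At most 400 nt were covered by 7 of 10 peaks in DF2 siRNA cells, against 36.6% of all, and by 15 of 20 in control cells, against 34.0%. More than 1 exonic piece was found in 1 of 10 DF2 siRNA peaks (RPL7), against 42.0% of all, and in 2 of 20 control peaks (RPL6 and RPL22), against 46.4%.

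With 1 place per peak (a stop codon label first, then 3′ UTR, then coding, then 5′ UTR), the 10 DF2 siRNA peaks comprised 5 at stop codons, 3 in 3′ UTRs, 0 in coding sequence, 1 in a 5′ UTR and 1 without a label. The 20 control peaks comprised 7 at stop codons, 6 in 3′ UTRs, 1 in coding sequence, 5 in 5′ UTRs and 1 without a label. Both stop codon counts include the RPS15 peak, which lies at the RefSeq start and also carries coding and 5′ UTR labels. Stop codons held 43.7% of all DF2 siRNA peaks and 42.7% of all control peaks. The 5′ UTR held 10% of the family's DF2 siRNA peaks (interval 0.253 to 44.5%), against 7.53% of all, and 25% of its control peaks (8.66 to 49.1%), against 7.43% of all. These intervals cover counting error only and are no test. Of the 5 genes with a 5′ UTR control peak, RPL7 had a DF2 siRNA peak and RPL6, RPL22, RPL30 and RPL37A had none. The control peaks of RPL22, RPL30 and RPL37A lie wholly upstream of the RefSeq gene, with scores of 5, 7 and 6.

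All 10 DF2 siRNA peaks of the family shared bases with control peaks on their strand, against 87.5% of all DF2 siRNA peaks. Of the 20 control peaks, 10 shared bases with a DF2 siRNA peak, against 71.9%. The unmatched ones were the 9 peaks of the 7 control-only genes and the most distal peak of RPL28. The interval was identical for 5 peaks, in RPL3, RPL37, RPS15 and 2 of RPL28, against 35.1% of all DF2 siRNA peaks and 29.5% of all control peaks. RPL13 and RPL7 had the wider peak in DF2 siRNA cells, and RPL13A, RPL14 and RPL28 in control cells.

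Fold enrichment and score ranked these peaks differently. The median fold enrichment of the family was 17.6 in DF2 siRNA cells, where all peaks had 17.7, and 11.6 in control cells, where all peaks had 20.8. The median score was 138.5 in DF2 siRNA cells, where all peaks had 74, and 97.5 in control cells, where all peaks had 143. Fold enrichment divided by the score plus 1 was 0.0113 for RPL13A and 0.0134 for RPL13 in DF2 siRNA cells, at percentiles 0.144 and 0.219 of that list. In control cells it was 0.00542 for RPL13A, 0.00694 for RPL4, 0.00774 for RPL13 and 0.0154 for the stop codon peak of RPS24, at percentiles 0.165, 0.254, 0.305 and 1.51. Their fold enrichments stood at lower percentiles than their scores, 52.6 and 83.4 for RPL13A and RPL13 in DF2 siRNA cells, and 35.3, 47.7, 75.6 and 22.1 for RPL13A, RPL4, RPL13 and this RPS24 peak in control cells.

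At the other end, many peaks shared the same quotient to 6 decimals. The 2 highest values held by at least 100 peaks were 0.926 and 0.87 in the DF2 siRNA list (5.49% of its peaks, median score 5), and 0.896 and 0.805 in the control list (8.37%, median score 6). RPL14 was on them in DF2 siRNA cells. In control cells RPL22, RPL30, RPL37A, the most distal RPL28 peak and the 3′ UTR peak of RPS24 were on them. Scores under 10 belonged to 0 of the family's 10 DF2 siRNA peaks, against 10.6% of all, and to 5 of its 20 control peaks, against 8.28% of all. The meaning of the score is not stated in the labels or headers.

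**Figure D3:**
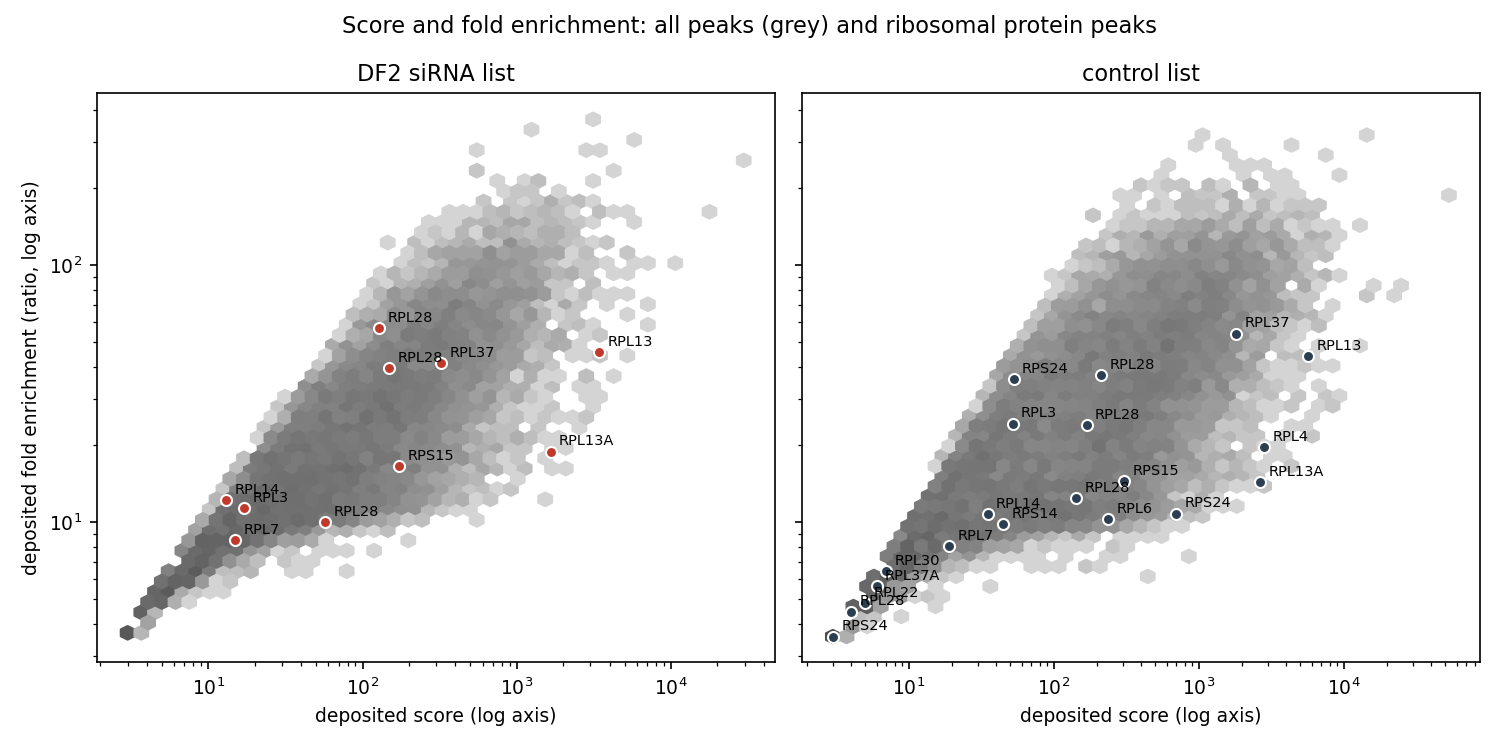
Deposited fold enrichment (vertical, log axis) against deposited score (horizontal, log axis) for all peaks of the DF2 siRNA list (left) and the control list (right) in grey, darker where peaks are denser, with the ribosomal protein peaks as named points. RPL13A and RPL13 in both lists and RPL4 and RPL37 in control lie far to the right, with scores from 1656 to 5706. RPL22, RPL30 and RPL37A lie at the lower left of the control list with scores of 5 to 7.

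Related genes were counted in the same way. Of 24 further cytosolic ribosomal protein genes, 7 had a peak in both lists, 0 in DF2 siRNA only, 1 in control only and 16 in neither. Of those with a control peak, 87.5% were found in DF2 siRNA cells too (47.3 to 99.7%), where the 56 genes had 53.3%. RACK1, a scaffold protein of the small subunit, had a best fold enrichment of 18.3 in DF2 siRNA cells and 36.2 in control cells. RPL36A had 21.1 in DF2 siRNA cells and 21.8 in control cells, RPL36 had 22.2 and 16.4, and RPL41 had 16.9 and 26.9. Of 8 paralog genes, RPL7L1 (78.3 in DF2 siRNA cells, 72.7 in control cells), RPL36AL (44.5 and 52.1) and RPL26L1 (9.02 and 9.49) had a peak, each in both lists.

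Of 18 translation factor and other TOP mRNA genes, 5 had a peak in both lists, 0 in DF2 siRNA only, 2 in control only and 11 in neither. The elongation factor gene EEF1D had 100.2 in DF2 siRNA cells and 68.6 in control cells, and EEF2 had 37.8 and 29.1. TPT1 had 39.4 in DF2 siRNA cells and 48.4 in control cells, and the initiation factor gene EIF3F had 10.9 and 32.9. EEF1A1 (11.0), which delivers aminoacyl-tRNA, and HNRNPA1 (9.49) had a control peak only.

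Of 37 ribosome biogenesis genes, 18 had a peak in both lists, 2 in DF2 siRNA only, 4 in control only and 13 in neither. UBTF, a transcription factor of RNA polymerase I, had 105.3 in DF2 siRNA cells and 54.4 in control cells. POLR1A, the largest subunit of that polymerase, had 97.7 in DF2 siRNA cells and 73.3 in control cells, GRWD1 had 97.4 and 111.9, and RRS1 had 75 and 90.1. BOP1 (16.9) and TCOF1 (16.3) were found in DF2 siRNA only, and BRIX1 (17.6), HEATR1 (11.5), WDR12 (8.83) and RIOK1 (4.48) in control only.

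Of 77 mitochondrial ribosomal protein genes, 37 had a peak in both lists, 2 in DF2 siRNA only, 8 in control only and 30 in neither, so 61.0% had a peak. Of those with a control peak, 82.2% were found in DF2 siRNA cells too (67.9 to 92.0%). MRPL27 had 95 in DF2 siRNA cells and 71.8 in control cells, MRPL35 had 66.8 and 106.6, MRPL12 had 66.5 and 39.4, and MRPL50 had 30.3 and 61.0. MRPL37 (10.9) and MRPL18 (9.41) were found in DF2 siRNA only. The highest in control only were MRPS30 (39.1), MRPS28 (35.9), MRPS15 (14.4), MRPL2 (11.5), MRPL49 (11.4) and MRPS33 (10.9). Differences between these gene lists were not tested.

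**Figure D4:**
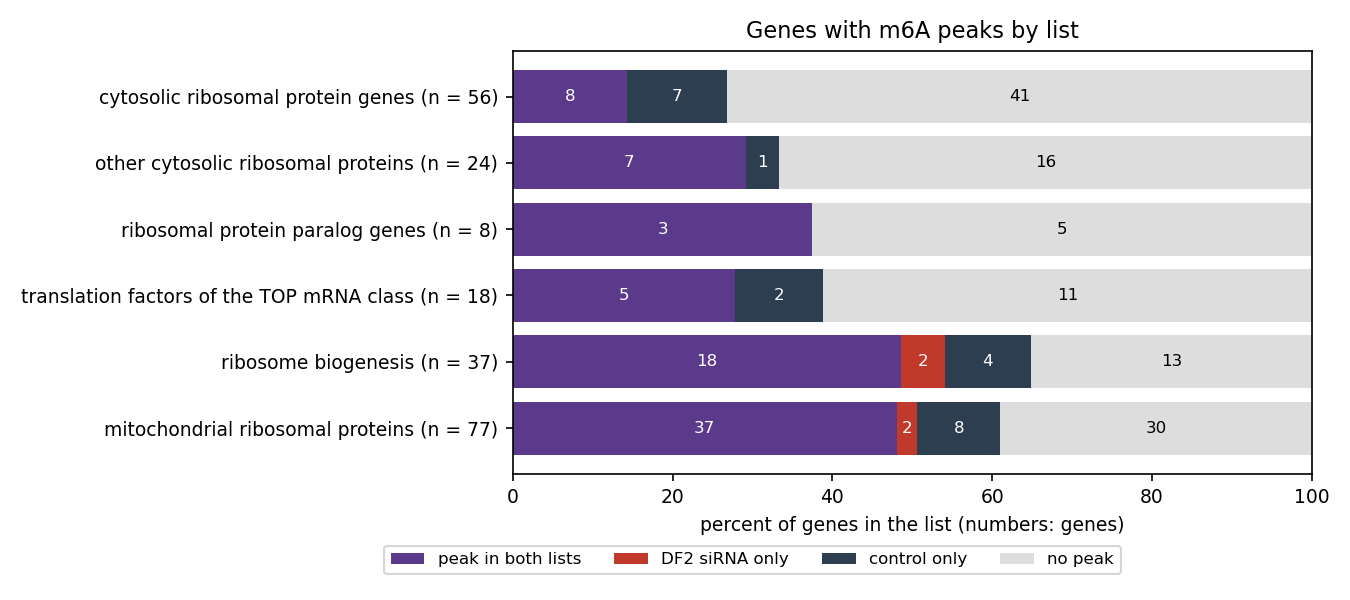
Percent of the genes of each list with a peak in both lists, in DF2 siRNA only, in control only and with no peak, with the number of genes in each bar piece. No peak was found for 41 of the 56 cytosolic ribosomal protein genes and for 30 of the 77 mitochondrial ones.

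Pseudogenes of ribosomal proteins are near-identical copies that can take reads from the parent mRNA. Of 1971 such genes picked by symbol, 22 (1.12%) had a named peak. Of these, 8 were in both lists, 1 in DF2 siRNA only (RPSAP51, 8.18) and 13 in control only. Of the 21 with a control peak, 38.1% (18.1 to 61.6%) were found in DF2 siRNA cells too. Among all genes with a control peak, 79.7% were, and 20.3% were in control only. RPL39P5 had 23.8 in DF2 siRNA cells and 28.3 in control cells, RPS20P21 had 15 and 57.6, and RPL18P13 had 8.18 and 16.5. RPL4P6 had 6.29 in DF2 siRNA cells and 31.0 in control cells, and RPS18P9 had 7.11 and 29.2. The highest in control only were RPL23AP53 (24.2), RPS2P32 (16.7), RPL32P29 (14.7), RPL9P25 (14.5), RPL5P4 (13.8) and RPL23P2 (13.5). How reads matching several places were counted is not stated, so values of parent genes and their copies are uncertain.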

How the data were processed

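Per the submitters' processing notes, HISAT2 and the hg38 build were used. No source used here names the peak caller, annotation, filters or use of strand. The authors deposited 1 peak list for each condition, tied by the labels to both m6A immunoprecipitates. Per the file headers, each peak has a fold enrichment (a ratio), a score, and a −log10 column for a p-value (control) or an FDR (DF2 siRNA). These are the authors' values, used here to describe and rank peaks within a list. Peak widths are mostly multiples of 200 nt. In minus strand peaks with several blocks, the deposited block lengths did not end at the peak's own end when read in file order in 51.9% (DF2 siRNA) and 59.5% (control), and in 0 when reversed, so they were reversed.

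Positions are counted from 1. All 56 genes matched RefSeq (GRCh38.p14) by symbol, 48 with a promoter sequence. Overlap meant at least 1 shared exonic base on the same strand. Intervals are exact binomial (Clopper-Pearson, 95%) and cover counting error only. Every gene of the family with a peak is named. From the other lists, up to 6 genes found in 1 list only and the 3 with the highest fold enrichment in each list among genes found in both are named. The values of 1 gene of these lists are not reported here. Members and lists were chosen with earlier results of these data known. The overlap step was tested on simulated data. With 1 list per condition no model was fitted. Software was Python 3.11.15 with numpy 2.4.6, pandas 2.3.3 and scipy 1.17.1.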

Additional observations from a re-analysis of the deposited data

How the results depend on the processing

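The count of genes in both lists, DF2 siRNA only and control only (8, 0 and 7) moved with the settings. In that order it was 3, 1 and 2 for the upper 50% of each list by fold enrichment, 4, 1 and 2 where p or FDR had to be 100 times smaller, and 1, 0 and 1 for genes of 2 or more peaks. It was 7, 1 and 4 when the control list was shortened to equal length, and the same with a score floor of 10 in DF2 siRNA and 23.5 in control. It was 6, 1 and 7 with peaks of at most 400 nt, and 15, 0 and 8 over all 80 cytosolic ribosomal protein genes. It was 7, 0 and 4 by RefSeq span and, in a setting added after seeing the data, for named peaks that touch that span. Both leave out RPL3, RPL22, RPL30 and RPL37A by construction. RPS24 was control only under every setting, and the DF2 siRNA only gene was RPL13A, RPL14 or RPL7. The share of all control genes also found in DF2 siRNA was 75.1% in the upper 50%, 86.4% at equal length, 73.9% with the smaller p or FDR, 85.2% with the score floor, 65.2% with 2 or more peaks and 48.5% with peaks of at most 400 nt. With every label counted, DF2 siRNA peaks numbered 7 in 3′ UTR, 5 in coding sequence and 2 in 5′ UTR, and control peaks 11 in 3′ UTR and 8 in coding sequence. Among peaks of at most 400 nt, 3 DF2 siRNA and 4 control peaks carried a stop codon label, with RPS15 among them in each list. The cause of these shifts was not tested. The overlap counts and median widths were the same under the alternatives run for them.

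No paired analysis was possible because each condition has 1 pooled list, which also prevents leaving out a replicate. Depth is unknown, so a missing peak does not show missing m6A.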
